A study of Mus musculus with 2 samples.

Results

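The genes of integrins, laminins and the basement membrane were taken by symbol from the deposited expression table. They are every integrin α or β subunit with a row of its own except Itga2b, every laminin chain, both nidogens (Nid1, Nid2), perlecan (Hspg2) and agrin (Agrn), which gave 39 genes of 35798 rows. Rows that name several genes were left out.

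Integrins are cell-surface receptors made of 1 α and 1 β subunit that join the extracellular matrix and neighbouring cells to the actin skeleton. Laminins are trimers of 1 α, 1 β and 1 γ chain that self-assemble into the sheet of a basement membrane, which nidogens tie to collagen IV and which carries the heparan sulfate proteoglycans perlecan and agrin. In bone marrow, stromal cells that wrap the sinusoids and arterioles lay down this matrix, and blood stem cells hold on to the stroma through integrins such as α4β1 and its ligand VCAM-1.

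The study compared adult C57BL/6 mice of 2 genotypes. The first was Nes-gfp;Mx1-cre;JAK2-V617F, in which an interferon-inducible Cre switches on the kinase mutation of myeloproliferative neoplasms. The second was Nes-gfp littermates, for which the labels list neither Cre nor the mutant allele, so Cre and the mutation cannot be told apart. Both carried GFP under nestin regulatory sequence and both received pIpC, the double-stranded RNA that induces the Mx1 promoter. The Mx1 promoter responds to interferon in many cell types, and the labels do not say which marrow cells recombined. Marrow cells lacking the leukocyte marker CD45, the endothelial marker CD31 and the red cell marker Ter119 and positive for GFP were sorted, from 3 animals per genotype combined into 1 library. The JAK2 V617F animals were taken 6 weeks after induction, and the control label gives no time. With 1 library per genotype there is no replicate error and no test between genotypes, and every difference below is one between 2 pools.

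Values are FPKM, fragments scaled to transcript length and to the mapped fragments of the library, which are per length and so can be set side by side between genes. A difference is log2((JAK2 V617F FPKM + 1)/(control FPKM + 1)). A gene is called higher or lower at 2-fold or more on that scale, if it reached 1 FPKM in a library; the added 1 FPKM understates the change of low genes. From the steps that single fragments leave in low values, the libraries held an estimated 6377081 (JAK2 V617F) and 5488231 (control) fragments. At the median length of the longest annotated transcripts of these genes, 5784 nt, 1 FPKM stood for about 35.9 fragments in the JAK2 V617F library and 30.9 in the control library. The 8 stromal markers checked, among them Lepr, Cxcl12 and Pdgfrb, were present in both libraries, with 0 of 8 past 2-fold. Of these, 7 lay below 0 and 1, Pdgfrb (0.17), above, with a median log2 ratio of -0.37. Their summed level was 884 FPKM in the JAK2 V617F library and 1130 FPKM in the control library. Nes itself was low, at 3.00 FPKM in the JAK2 V617F library and 4.84 FPKM in the control library. Jak2 was at 29.9 FPKM in the JAK2 V617F library and 24.5 FPKM in the control library (log2 ratio 0.28), a row that does not separate the mutant allele and so is no check of the labels. Transcripts of 2 markers used for depletion were also present. Ptprc (CD45) was at 8.79 FPKM in the JAK2 V617F library and 5.38 FPKM in the control library, and Pecam1 (CD31) at 19.0 FPKM in the JAK2 V617F library and 17.1 FPKM in the control library. In such pools, fewer cells of a type and less RNA per cell cannot be told apart.

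Of the 39 genes, 29 reached 1 FPKM in a library and 25 of these lay within 2-fold. The 2 called higher in the JAK2 V617F library were Itga7, a laminin receptor subunit, and Itgb7, a leukocyte β subunit. The 2 called lower were Itgav, the αv subunit, and Itga9, the α9 subunit. The share was 6.90% in each direction. Over all 15425 rows at 1 FPKM or more, 13.7% were called higher and 11.3% lower, and over the 11659 protein-coding rows 9.90% were called higher and 8.70% lower. Each share of the family rests on 2 genes, so its distance from those backgrounds is not read as a trait of the family. Its median log2 ratio was 0.09, with 15 genes above 0 and 14 below, against a median of -0.03 over all rows. After scaling the libraries to equal sums, which moved the median of all rows by 0.17, the counts were 3 higher and 1 lower. Just past 2-fold lay Itga9 (-1.10) and Itgb7 (1.14), and just short of it lay Itga8 (0.95) and Nid2 (-0.91).

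**Figure D1:**
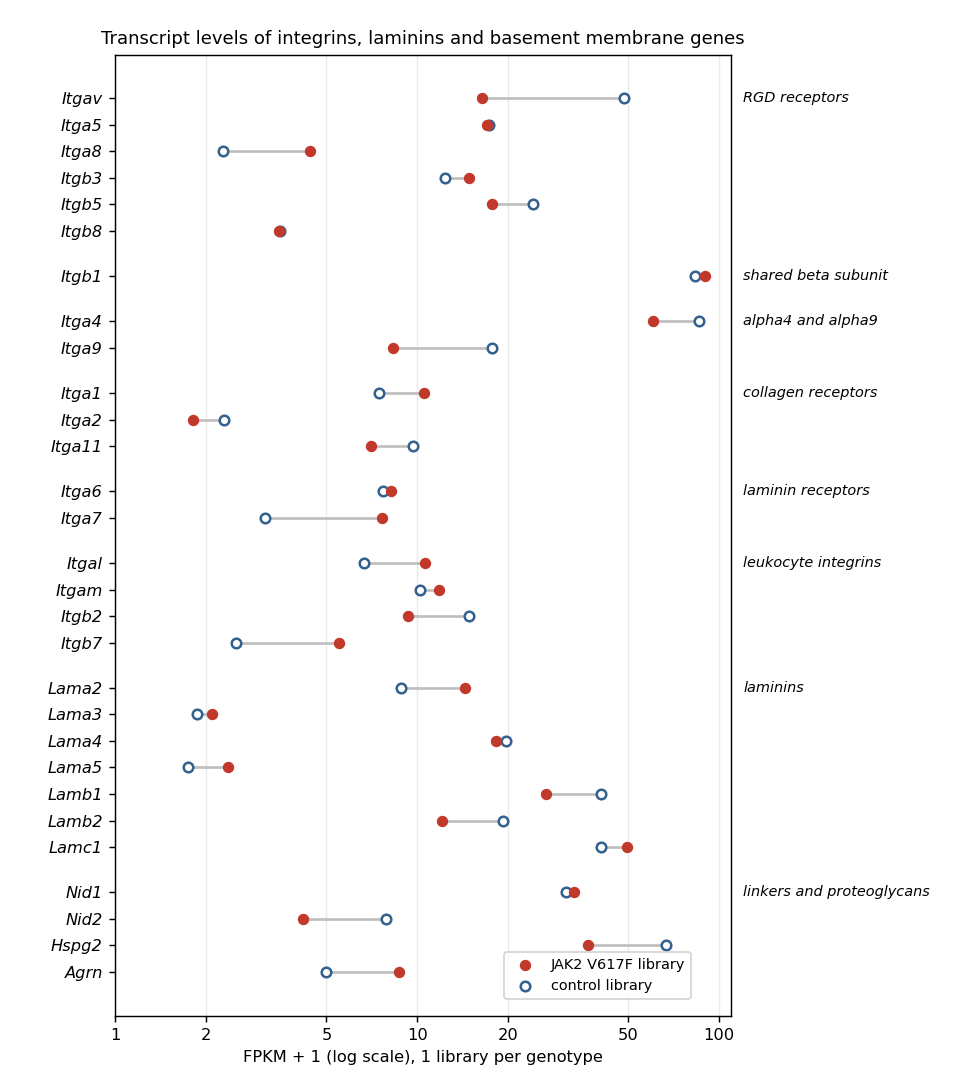
Level of each of the 29 genes at 1 FPKM or more, as FPKM + 1 on a log scale, grouped by role; the filled red point is the JAK2 V617F library, the open blue point the control library, and the grey line joins them (1 library each). Itgb1 is the highest point in the JAK2 V617F library and Itga4 in the control library, and the longest line is that of Itgav.

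The other 10 genes stayed below 1 FPKM in both libraries. Itgb6, an epithelial partner of αv, and Lamb3, the β chain of epithelial laminin-332, were listed at 0 in both. Itgb4, the β subunit of hemidesmosomes, was at 0.758 FPKM in the JAK2 V617F library and 0.912 FPKM in the control library. These 3 genes, known from epithelia, were thus below 1 FPKM in these stromal pools. Itga3 was at 0.295 FPKM in the JAK2 V617F library and 0.0857 FPKM in the control library. Lama1, the α chain of embryonic basement membranes, was at 0.289 FPKM in the JAK2 V617F library and 0.985 FPKM in the control library. Lamc3 had a listed value of 0 in the JAK2 V617F library and 0.442 FPKM in the control library. Itgad was at 0.730 FPKM in the JAK2 V617F library and listed at 0 in the control library, Itgae was at 0.710 FPKM in the JAK2 V617F library and 0.669 FPKM in the control library, and Itgax was at 0.126 FPKM in the JAK2 V617F library and 0.195 FPKM in the control library. Those 3 are leukocyte α subunits.

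Of the 6 subunits at 1 FPKM or more of receptors that read the RGD motif of fibronectin, vitronectin and osteopontin, Itgav was called lower and the other 5 were not called. Itgav (chr2:83724397-83806916, GRCm38), the α subunit shared by the αv integrins, was at 15.3 FPKM in the JAK2 V617F library and 47.5 FPKM in the control library, a log2 ratio of -1.57. It was called lower under each of the 8 alternative settings tried, where its values lay between -1.63 and -1.37. If all its fragments came from the longest annotated transcript, these levels would rest on about 674 fragments in the JAK2 V617F library and 1799 in the control library. None of its β partners passed 2-fold. Itgb1, which pairs with αv and with most other α subunits, was at 88.9 FPKM in the JAK2 V617F library and 82.4 FPKM in the control library (0.11). Itgb3 was at 13.9 FPKM in the JAK2 V617F library and 11.4 FPKM in the control library (0.27). Itgb5 was at 16.6 FPKM in the JAK2 V617F library and 23.1 FPKM in the control library (-0.45), and Itgb8, a partner in activating latent TGF-β, at 2.48 FPKM in the JAK2 V617F library and 2.52 FPKM in the control library (-0.02).

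A ratio of 2 genes within a library does not depend on how the libraries were scaled to each other. For each FPKM of Itgb1 there were 0.173 FPKM of Itgav in the JAK2 V617F library and 0.577 FPKM in the control library. Against Itgb5 the ratio of Itgav was 0.923 in the JAK2 V617F library and 2.06 in the control library, and against Itgb3 it was 1.11 in the JAK2 V617F library and 4.19 in the control library. Itgav was thus below Itgb1 in both libraries, and it was below Itgb5 in the JAK2 V617F library and above it in the control library. Itga5, the α subunit of the main fibronectin receptor α5β1, was at 16.0 FPKM in the JAK2 V617F library and 16.3 FPKM in the control library (-0.03). Itga8, an RGD-binding subunit of smooth muscle and mesenchyme, was at 3.39 FPKM in the JAK2 V617F library and 1.27 FPKM in the control library (0.95). It passed 2-fold under the 3 other scalings (1.01 to 1.09) and with a pseudocount of 0.1 FPKM (1.35). Markers of megakaryocytes, blood cells that carry β3 at high levels, were summed to 49.0 FPKM in the JAK2 V617F library and 12.4 FPKM in the control library. Of 6 measured, 2 were called higher, Pf4 (24.1 FPKM in the JAK2 V617F library) and Ppbp (9.76 FPKM). Both reached 1 FPKM only in that library. In all, 4 lay above 0 and 2 below, Gp5 (-0.82) and Itga2b (-0.05). In the JAK2 V617F library Gp6 had a listed value of 0, and in the control library Gp6, Pf4, Ppbp and Treml1 had. Their part in the level of Itgb3 was not tested.

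**Figure D2:**
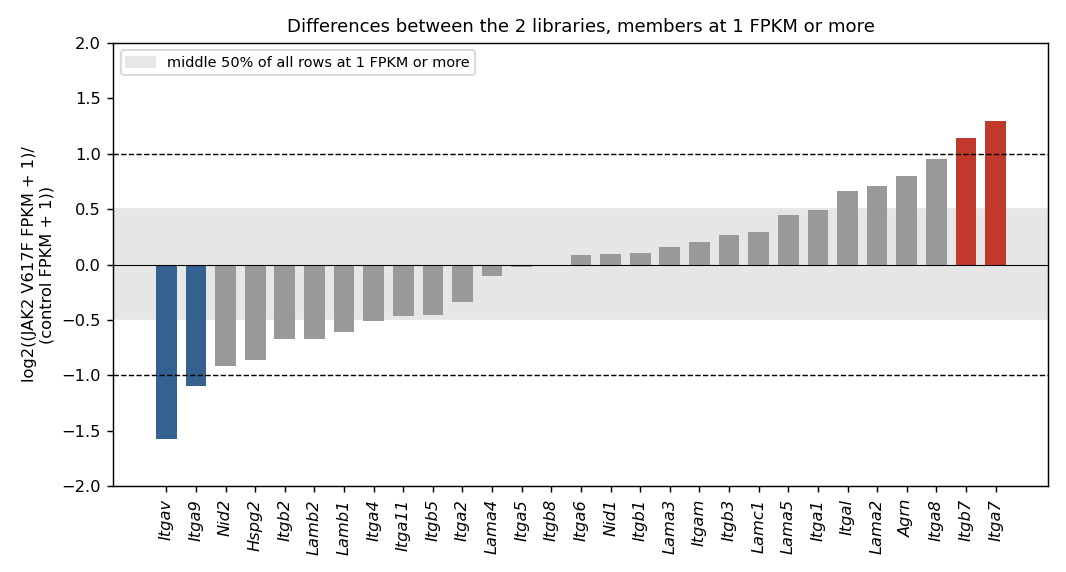
Bars give log2((JAK2 V617F FPKM + 1)/(control FPKM + 1)) for each of the 29 genes, sorted; dashed lines mark 2-fold, red and blue bars are past it, and the grey band holds the middle 50% of all rows at 1 FPKM or more. Itgav (-1.57) and Itga9 (-1.10) are the bars past 2-fold on the low side and Itgb7 (1.14) and Itga7 (1.29) on the high side.

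The start-site windows of Itgav and Itgb1 are shown because Itgav was called lower and its partner Itgb1 was not called. Each runs from 250 bases before to 50 bases after a RefSeq transcript start (GRCm38.p6) and is written 5′ to 3′ on the gene's strand. Capitals mark the GC box GGGCGG, the motif of the Sp factors, searched on both strands (GGGCGG or CCGCCC). The Itgav window is chr2:83724147-83724446 on the plus strand and that of Itgb1 is chr8:128685404-128685703 on the plus strand.
Itgav: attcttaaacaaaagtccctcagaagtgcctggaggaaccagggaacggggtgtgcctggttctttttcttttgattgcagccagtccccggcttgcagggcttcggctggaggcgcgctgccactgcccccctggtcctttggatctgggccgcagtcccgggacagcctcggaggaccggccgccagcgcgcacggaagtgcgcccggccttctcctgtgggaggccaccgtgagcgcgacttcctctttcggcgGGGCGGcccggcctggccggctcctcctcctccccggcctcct
Itgb1: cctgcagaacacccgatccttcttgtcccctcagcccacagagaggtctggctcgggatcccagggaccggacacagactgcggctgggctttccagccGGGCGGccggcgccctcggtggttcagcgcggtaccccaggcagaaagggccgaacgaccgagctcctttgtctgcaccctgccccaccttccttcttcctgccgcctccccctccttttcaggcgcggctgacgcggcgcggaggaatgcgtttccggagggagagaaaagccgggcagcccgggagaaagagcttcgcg
Both windows held 1 GC box, and both were 67.3% G or C, with 24 CpG dinucleotides in Itgav and 27 in Itgb1. Of the genes, 24 had a window in the RefSeq table, 28 windows in all, and 57.1% of those held a GC box, against 35.7% of all 32851 windows of this length. The TATA motif TATAAA was in none of the 28 windows and in 13.6% of all windows. Among the proteoglycans, the Hspg2 window held 5 GC boxes and the window at the outer start of Agrn held 12. These matches describe letters and not bound sites.

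Itga4 and Itga9 belong to 1 branch of α subunits and were both lower in the JAK2 V617F library, Itga9 past 2-fold. Itga4, whose product pairs with β1 and binds VCAM-1 and fibronectin, had the highest level of all α subunits in both libraries, at 59.3 FPKM in the JAK2 V617F library and 84.7 FPKM in the control library (-0.51). Itga9 (chr9:118606690-118926269), whose product binds tenascin-C and osteopontin, was at 7.30 FPKM in the JAK2 V617F library and 16.7 FPKM in the control library (-1.10). It no longer passed 2-fold after scaling to equal sums (-0.94) and with a pseudocount of 5 FPKM (-0.82). The rows of both genes span other annotated genes, and since no source used here states the use of strand, reads of antisense neighbours cannot be told apart. Within the Itga9 row, Gm2415 was listed at 0 in both libraries. Gm10157 was at 0.913 FPKM in the JAK2 V617F library and Gm16295 at 1.55 FPKM, and both were listed at 0 in the control library. Among the ligands of these receptors, Vcam1 was at 51.5 FPKM in the JAK2 V617F library and 43.8 FPKM in the control library (0.23). Tnc, encoding tenascin-C, was at 174 FPKM in the JAK2 V617F library and 323 FPKM in the control library (-0.89), and Spp1, encoding osteopontin, at 1201 FPKM in the JAK2 V617F library and 2311 FPKM in the control library (-0.94). Spp1 is also an osteoblast product, and of 7 osteoblast markers 4 were called lower, with a summed level of 1913 FPKM in the JAK2 V617F library and 3827 FPKM in the control library. None of those markers was at 0, and their part in the levels of Itgav and Itga9 was not tested.

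Over the 11 measured α subunits that can pair with β1, the summed level was 132 FPKM in the JAK2 V617F library and 192 FPKM in the control library. Itga4 made up 45.0% of that sum in the JAK2 V617F library and 44.1% in the control library. The share of Itgav was 11.6% in the JAK2 V617F library and 24.8% in the control library, and that of Itga9 was 5.54% in the JAK2 V617F library and 8.72% in the control library. Itga5 took 12.1% in the JAK2 V617F library and 8.50% in the control library, so it stood above Itgav in the JAK2 V617F library and below it in the control library. The summed β subunits were at 135 FPKM in the JAK2 V617F library and 136 FPKM in the control library.

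**Figure D3:**
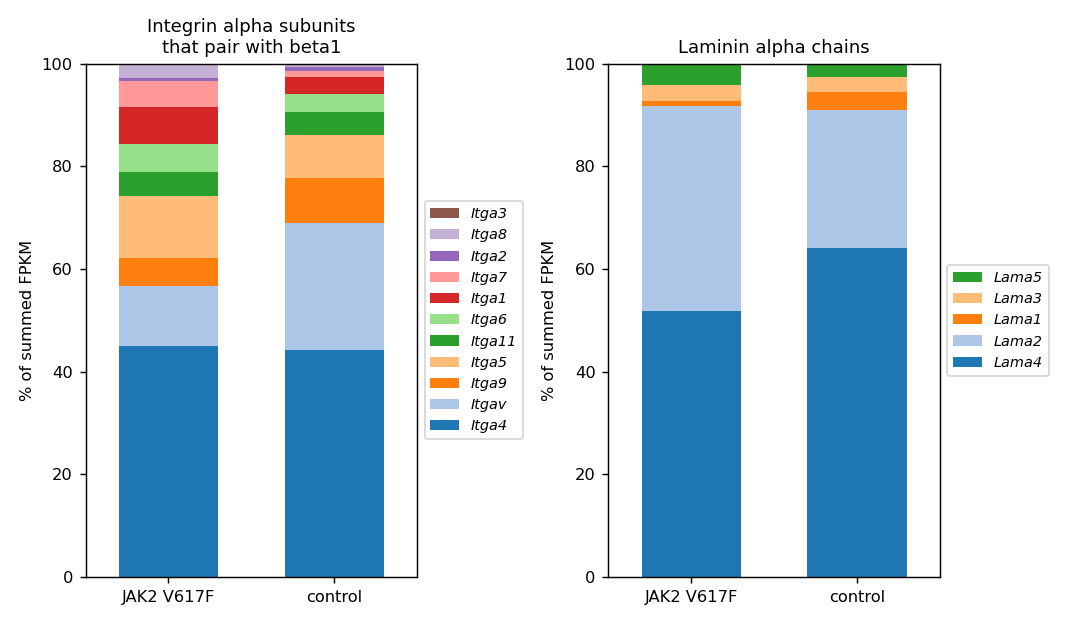
Stacked bars give each gene's percentage of the summed FPKM of its set, for the α subunits that pair with β1 (left) and the laminin α chains (right), with the JAK2 V617F library left of the control library (1 library each). The Itgav band is 11.6% in the JAK2 V617F library and 24.8% in the control library, and the Lama2 band is 40.1% in the JAK2 V617F library and 26.9% in the control library.

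None of the 3 collagen receptor subunits was called. Itga1, the collagen IV receptor subunit of smooth muscle and stroma, was at 9.50 FPKM in the JAK2 V617F library and 6.45 FPKM in the control library (0.50). Its row encloses Pelo, which has a row of its own at 11.4 FPKM in the JAK2 V617F library and 11.7 FPKM in the control library. Itga11, the fibrillar collagen receptor subunit of fibroblasts, osteogenic stroma included, was at 6.02 FPKM in the JAK2 V617F library and 8.67 FPKM in the control library (-0.46). Itga1 was thus the higher of that pair in the JAK2 V617F library, at 1.58 times Itga11, and the lower in the control library, at 0.744 times. Itga2 was at 0.809 FPKM in the JAK2 V617F library and 1.29 FPKM in the control library (-0.34).

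Among laminin receptor subunits, Itga7 had the largest positive ratio of all 29 genes. This subunit (row at chr10:128933813-128960988), which pairs with β1 and is best known from muscle, was at 6.65 FPKM in the JAK2 V617F library and 2.13 FPKM in the control library (1.29). With the longest transcript these would be about 164 fragments in the JAK2 V617F library and 45 in the control library, and the call was lost with a pseudocount of 5 FPKM (0.71). Its row overlaps Mettl7b, which was listed at 0 in both libraries. Itga6, a laminin receptor subunit shared by stromal, endothelial and blood cells, was at 7.20 FPKM in the JAK2 V617F library and 6.70 FPKM in the control library (0.09). The ratio of Itga7 to Itga6 was 0.924 in the JAK2 V617F library and 0.317 in the control library. Markers of mural cells, the smooth muscle cells and pericytes of vessels that also carry α1, α7 and α8, were higher beside it. Of 8 measured, 7 lay above 0 and 4 were called higher, with a summed level of 311 FPKM in the JAK2 V617F library and 162 FPKM in the control library and none at 0. Their part in the levels of Itga1, Itga7 and Itga8 was not tested.

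The leukocyte integrins are β2 and β7 with their α partners. Itgb2 was at 8.33 FPKM in the JAK2 V617F library and 13.9 FPKM in the control library (-0.67). Its α partners at 1 FPKM or more, Itgal and Itgam, lay above 0, and neither was called. Itgal, the α subunit of LFA-1, was at 9.59 FPKM in the JAK2 V617F library and 5.67 FPKM in the control library (0.67), and Itgam, the α subunit of Mac-1, at 10.8 FPKM in the JAK2 V617F library and 9.20 FPKM in the control library (0.21). The ratio of Itgal to Itgb2 was 1.15 in the JAK2 V617F library and 0.409 in the control library. Itgb7 (chr15:102215995-102231935), which pairs with α4 on lymphocytes and mast cells, was called higher, at 4.52 FPKM in the JAK2 V617F library and 1.51 FPKM in the control library (1.14). With the longest transcript these would be only about 73 fragments in the JAK2 V617F library and 21 in the control library, and the ratio was 0.55 with a pseudocount of 5 FPKM. All 10 leukocyte markers lay above 0 and 3 were called higher, with a summed level of 699 FPKM in the JAK2 V617F library and 518 FPKM in the control library. None was at 0, and their part in the levels of the leukocyte integrins was not tested. Without the 7 leukocyte integrin genes, 1 of 25 genes was called higher and 2 lower, and the median log2 ratio was -0.02.

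The Itgb7 start-site window, chr15:102231886-102232185 on the minus strand (GRCm38.p6, RefSeq), is shown against those of Itgav and Itgb1 because Itgb7 was called in the other direction.
Itgb7: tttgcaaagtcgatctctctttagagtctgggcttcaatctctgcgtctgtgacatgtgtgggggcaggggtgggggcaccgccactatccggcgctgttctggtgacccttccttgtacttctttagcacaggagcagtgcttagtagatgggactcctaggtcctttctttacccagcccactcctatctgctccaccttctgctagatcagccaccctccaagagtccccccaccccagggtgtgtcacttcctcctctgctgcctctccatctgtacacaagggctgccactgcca
It held no GC box in capitals, 5 CpG dinucleotides and 56.3% G or C.

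Of the 11 laminin chains, 7 reached 1 FPKM in a library and none of these was called. Lamc1, the γ1 chain common to most laminins, was at 48.6 FPKM in the JAK2 V617F library and 39.4 FPKM in the control library (0.30). Both β chains were at lower levels in the JAK2 V617F library. Lamb1 was at 25.6 FPKM in the JAK2 V617F library and 39.6 FPKM in the control library (-0.61), and Lamb2 at 11.1 FPKM in the JAK2 V617F library and 18.3 FPKM in the control library (-0.67). The ratio of Lamb1 to Lamc1 was 0.527 in the JAK2 V617F library and 1.00 in the control library, while that of Lamb2 to Lamb1 was 0.434 in the JAK2 V617F library and 0.462 in the control library. Lamb1 was thus below Lamc1 in the JAK2 V617F library and at a like level in the control library.

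Lama4, the α4 chain of laminin-411 in vessels and marrow stroma, led the α chains in both libraries. It was at 17.3 FPKM in the JAK2 V617F library and 18.6 FPKM in the control library (-0.10). Lama2, the α2 chain of muscle and nerve laminin, was at 13.4 FPKM in the JAK2 V617F library and 7.82 FPKM in the control library (0.71). Its share of the summed α chains was 40.1% in the JAK2 V617F library and 26.9% in the control library, and that of Lama4 was 51.7% in the JAK2 V617F library and 64.1% in the control library. Lama5, the α5 chain of mature vessels, was at 1.37 FPKM in the JAK2 V617F library and 0.739 FPKM in the control library (0.44), and Lama3, an epithelial chain, at 1.08 FPKM in the JAK2 V617F library and 0.869 FPKM in the control library (0.16). Schwann cell markers, whose cells also make α2, were summed to 289 FPKM in the JAK2 V617F library and 243 FPKM in the control library. Of 7 measured, 1 was called higher, 5 lay above 0 and 2 below, and Mag was at 0 in the control library. The called gene was S100b, at 76.2 FPKM in the JAK2 V617F library and 22.4 FPKM in the control library. Pmp22, the highest of them, was at 149 FPKM in the JAK2 V617F library and 177 FPKM in the control library, and Sox10 was at 2.30 FPKM in both. Endothelial markers were summed to 45.9 FPKM in the JAK2 V617F library and 36.4 FPKM in the control library, with Cldn5 at 0 in the control library. Of 9 measured, 6 lay above 0 and 3 below, Kdr (-0.77), Tek (-0.62) and Cdh5 (-0.07). The 2 called higher, Emcn and Robo4, reached 1 FPKM only in the JAK2 V617F library. The parts of the Schwann cell and endothelial markers in the laminin levels were not tested.

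None of the 4 linkers and proteoglycans was called. Nid1, the main laminin to collagen IV linker, was at 32.1 FPKM in the JAK2 V617F library and 30.03 FPKM in the control library (0.09). Nid2 was at 3.19 FPKM in the JAK2 V617F library and 6.88 FPKM in the control library (-0.91), and its call at 2-fold was met only with a pseudocount of 0.1 FPKM (-1.09). The ratio of Nid2 to Nid1 was 0.0992 in the JAK2 V617F library and 0.229 in the control library. Hspg2, encoding perlecan, a proteoglycan of vessel and cartilage matrix, was at 35.6 FPKM in the JAK2 V617F library and 65.5 FPKM in the control library (-0.86). Agrn, encoding agrin, a dystroglycan-binding proteoglycan, was at 7.71 FPKM in the JAK2 V617F library and 4.001 FPKM in the control library (0.80). For each FPKM of Hspg2 there were 0.216 FPKM of Agrn in the JAK2 V617F library and 0.0611 FPKM in the control library. Chondrocyte markers, whose cells also make perlecan, were summed to 598 FPKM in the JAK2 V617F library and 304 FPKM in the control library, with 4 of 6 called higher and none at 0. Their part in the level of Hspg2 was not tested.

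Genes that work with these receptors and matrix proteins were described from lists chosen with earlier results known. Of the 5 basement membrane collagens at 1 FPKM or more, 1 was called lower and 0 were called higher, and the median of their log2 ratios was -0.01. Col4a1 was at 31.4 FPKM in the JAK2 V617F library and 22.7 FPKM in the control library (0.45), and its partner chain Col4a2 at 17.3 FPKM in the JAK2 V617F library and 17.4 FPKM in the control library (-0.01). Col15a1 was at 21.7 FPKM in the JAK2 V617F library and 43.7 FPKM in the control library (-0.98), and Col18a1 at 4.71 FPKM in the JAK2 V617F library and 2.90 FPKM in the control library (0.55). The called gene was Col4a6, at 0.0263 FPKM in the JAK2 V617F library and 1.35 FPKM in the control library (-1.20).

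Among 13 other basement membrane genes at 1 FPKM or more, 3 were called higher and none lower, with a median of 0.14. Of the 13, 8 lay above 0 and 5 below. Sparc, the highest of them, was among those below, at 2724 FPKM in the JAK2 V617F library and 4686 FPKM in the control library (-0.78). Of the called genes, Npnt and Egflam reached 1 FPKM only in the JAK2 V617F library. Npnt, encoding nephronectin, the ligand of α8β1, was at 3.66 FPKM in the JAK2 V617F library and 0.471 FPKM in the control library (1.66). Egflam, encoding the dystroglycan ligand pikachurin, was at 4.71 FPKM in the JAK2 V617F library and 0.826 FPKM in the control library (1.64). Ntn4, a laminin-related netrin that binds γ1, was at 47.0 FPKM in the JAK2 V617F library and 19.4 FPKM in the control library (1.24). Pxdn, the peroxidase that crosslinks collagen IV, was at 12.96 FPKM in the JAK2 V617F library and 6.43 FPKM in the control library (0.91), and passed 2-fold after scaling to equal sums (1.08).

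Laminin is also read by receptors that are not integrins. Of 14 measured genes of such receptors and of the dystroglycan complex, 1 was called higher and 1 lower, with a median of 0.20. Some of these, Sntb1 and Dmd among them, encode proteins of that complex inside the cell and not receptors. Sntb1, encoding β1-syntrophin of the dystroglycan complex, was at 8.15 FPKM in the JAK2 V617F library and 0.641 FPKM in the control library (2.48). Sdc2, encoding syndecan-2, was at 17.9 FPKM in the JAK2 V617F library and 37.6 FPKM in the control library (-1.03), a call lost under the 3 other scalings. Bcam, the Lutheran receptor for laminin α5, was at 12.5 FPKM in the JAK2 V617F library and 5.93 FPKM in the control library (0.96), and Dmd, encoding dystrophin, at 29.6 FPKM in the JAK2 V617F library and 14.8 FPKM in the control library (0.95). Bcam and Dmd passed 2-fold under those 3 scalings. Dag1, encoding dystroglycan itself, was at 93.7 FPKM in the JAK2 V617F library and 64.7 FPKM in the control library (0.53).

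Of the 16 non-laminin integrin ligands at 1 FPKM or more, 2 were called higher and none lower, with a median of 0.05. Both encode RGD proteins that αv integrins bind. Vtn, encoding vitronectin, was at 27.8 FPKM in the JAK2 V617F library and 9.65 FPKM in the control library (1.43), and Mfge8 at 20.5 FPKM in the JAK2 V617F library and 7.29 FPKM in the control library (1.37). Some other αv ligands of the list were below 0 without passing 2-fold, among them Spp1 (-0.94), Postn (-0.89), Tnc (-0.89), Edil3 (-0.63) and Ibsp (-0.54). Others lay above 0, among them Cyr61 (0.99), Vwf (0.48) and Thbs1 (0.09). Of all 16 ligands, 9 lay above 0 and 7 below, so the ligands did not differ in 1 direction. Cyr61 was at 22.1 FPKM in the JAK2 V617F library and 10.6 FPKM in the control library, and passed 2-fold under the 3 other scalings. Fn1, encoding fibronectin, was at 60.3 FPKM in the JAK2 V617F library and 60.2 FPKM in the control library (0.00).

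Of 26 measured genes whose proteins bind integrin tails or join them to actin, 1 was called higher and 2 lower, with a median of 0.27 and 17 above 0. Tns3, encoding tensin-3, which binds β tails, was at 21.6 FPKM in the JAK2 V617F library and 88.0 FPKM in the control library (-1.97). Parva, encoding α-parvin of the ILK complex, was at 9.88 FPKM in the JAK2 V617F library and 23.8 FPKM in the control library (-1.19). Zyx, encoding zyxin of mature adhesions, was at 25.9 FPKM in the JAK2 V617F library and 11.8 FPKM in the control library (1.07). Rsu1, a partner of the same ILK complex, was at 156 FPKM in the JAK2 V617F library and 97.6 FPKM in the control library (0.67). Tln1, encoding the integrin activator talin-1, was at 177 FPKM in the JAK2 V617F library and 112 FPKM in the control library (0.65).

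Among the 10 genes of tetraspanins and other partners of integrins in the membrane, 1 was called higher and none lower, with a median of -0.30. Tspan4 was at 29.6 FPKM in the JAK2 V617F library and 12.9 FPKM in the control library (1.14). The tetraspanin gene Cd82 was at 51.8 FPKM in the JAK2 V617F library and 88.1 FPKM in the control library (-0.75), and Bsg, encoding basigin, at 371 FPKM in the JAK2 V617F library and 606 FPKM in the control library (-0.71). Cd63, another tetraspanin gene, was at 56.3 FPKM in the JAK2 V617F library and 86.2 FPKM in the control library (-0.61). In all, 7 of the 10 lay below 0.

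**Figure D4:**
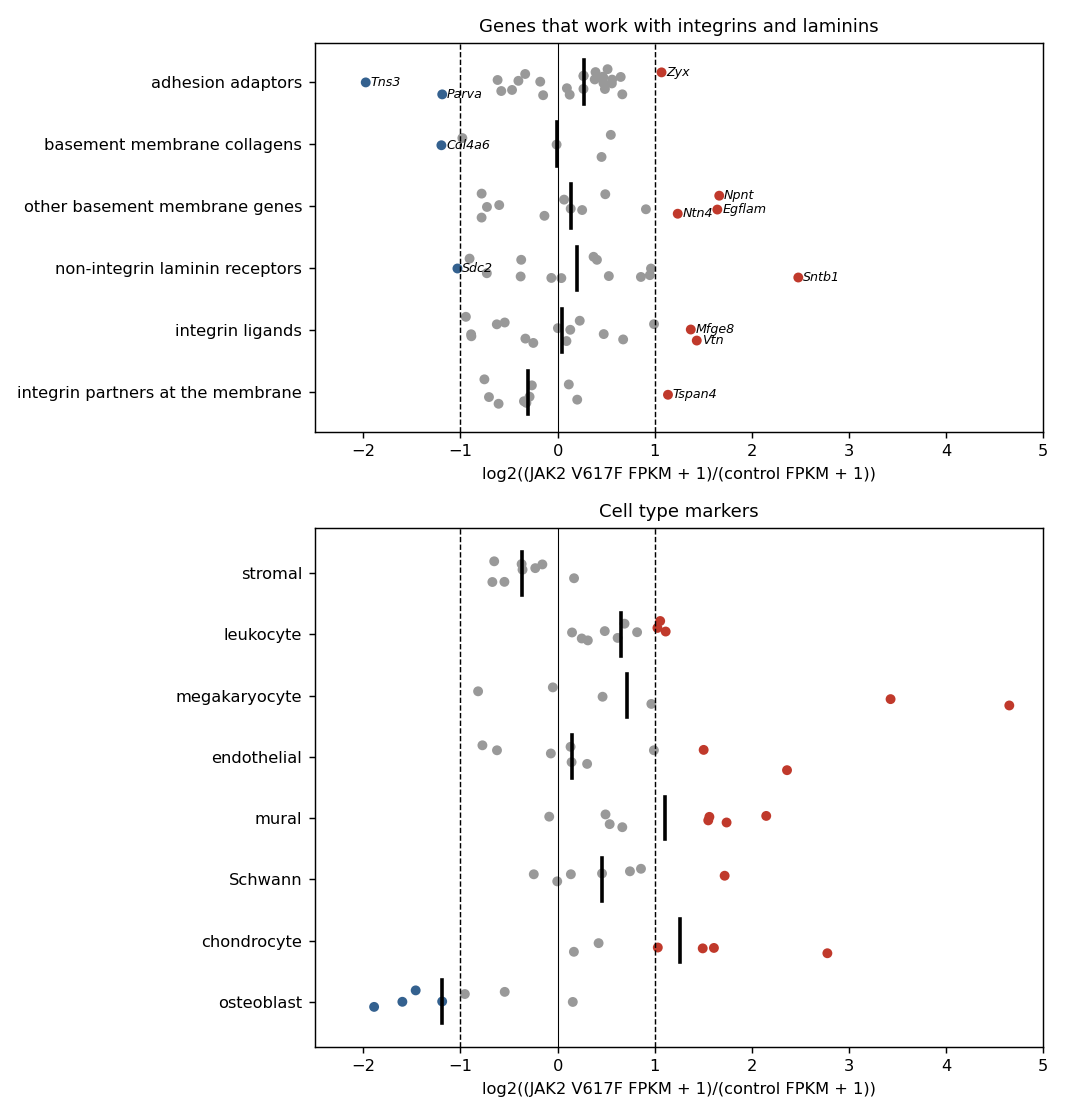
Each point is the log2((JAK2 V617F FPKM + 1)/(control FPKM + 1)) of 1 gene at 1 FPKM or more, by list, with black bars at list medians and dashed lines at 2-fold; the upper panel holds genes that work with integrins and laminins and the lower panel cell type markers. In the upper panel Tns3 (-1.97) lies farthest on the low side and Sntb1 (2.48) farthest on the high side, and in the lower panel all leukocyte markers lie above 0.

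The genes nearest to 2-fold were compared across the ways of setting the log scale and the scaling between libraries. Itgav stayed past 2-fold in each, Itga9 left it in 2 and Itga8 crossed it in 4. Hspg2 (-0.88 to -0.69) and Agrn (0.50 to 0.96) did not cross it in any.

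**Figure D5:**
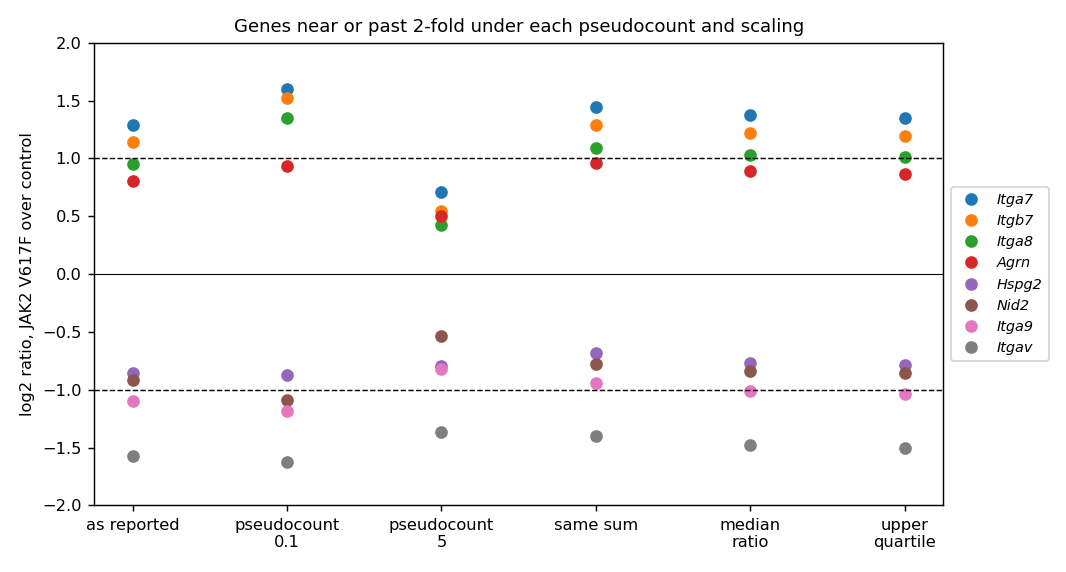
Log2 ratio (JAK2 V617F over control) of 8 genes under the reported setting, pseudocounts of 0.1 and 5 FPKM, and 3 rescalings of the libraries; dashed lines mark 2-fold and each point is 1 gene. Itgav stays below -1 in all 6 columns, and Itga7 and Itgb7 drop inside 2-fold only with the pseudocount of 5 FPKM (0.71 and 0.55).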

How the data were processed

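RNA was sequenced from 2 libraries, 1 per genotype, each with cells of 3 animals. Per the labels' protocols, 2 to 3 ng of RNA was amplified to cDNA before library preparation, with no molecular identifiers mentioned. The authors deposited 1 FPKM per gene and library. The genome was GRCm38 and the tools were Cufflinks, Bowtie2 2.0.6, TopHat2 2.0.7 and cutadapt 1.2.1, per the submitters' processing notes. Not given in the sources used here are the annotation release, strand use and scaling between libraries. Intervals are not printed, and depth speaks of counting error only.

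From these FPKM, log2 ratios with a pseudocount of 1 FPKM were computed for rows at 1 FPKM or more in a library (Python 3.11.15, pandas 2.3.3), with no test. All genes at 1 FPKM were named with both values; of each related list, the counts and the 4 largest ratios by size, with further genes named after their values were seen. The gene pairs set as ratios were also chosen then. The family and the lists were chosen with earlier results of these data known. Depth was estimated from 5569 genes with 1 transcript in GENCODE vM21, with the length offset, of 31 tried, that put most low genes on a common step (160 nt), so it is approximate. Planned counting intervals were not computed, since each of the 39 genes has 2 or more transcripts. Symbols of 77.0% of rows matched GENCODE vM21. Alternatives were 2 other pseudocounts, 2 other filters, 3 scalings and leaving out leukocyte integrins. The code for the calls and depth steps was run on simulated data, as a check of the code only. How reliable calls near 2-fold are for genes at low FPKM was not tested. Some values are not reported here.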

Additional observations from a re-analysis of the deposited data

How the results depend on the processing

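The median log2 ratio of the genes was 0.09 as reported. It was 0.10 with a pseudocount of 0.1 FPKM and 0.052 with one of 5 FPKM, 0 with no filter on low values and -0.026 at 5 FPKM or more. It was 0.25 after scaling to equal sums, 0.17 after rescaling by the median ratio, 0.15 by the upper quartile, and -0.017 without the leukocyte integrins, so its sign is not fixed. As reported, 2 genes were called higher and 2 lower. A pseudocount of 0.1 FPKM gave 3 higher and 3 lower (17.3% and 14.3% of all rows), and one of 5 FPKM gave 0 higher and 1 lower (3.95% and 4.10%). A filter of 5 FPKM gave 1 higher and 2 lower (9.28% and 9.96%), and no filter gave 2 and 2 (5.89% and 4.87%). Scaling to equal sums gave 3 higher and 1 lower (16.6% and 9.33%), and by the median ratio 3 and 2 (15.1% and 10.2%), as did the upper quartile (14.7% and 10.5%). Leaving out the leukocyte integrins gave 1 higher and 2 lower. Of 168 values for single genes under 6 of the alternatives, 152 kept their direction and side of 2-fold, 5 passed it, 4 fell short of it and 7, of Itga5, Itgb8 and Lama4, changed sign while within 2-fold. With 1 library per genotype no replicate could be left out. Depth limits the low genes most, Itgb7 and Itga8 among them.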

Other observations

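Symbols near the family that its definition leaves out gave these values. Itga2b, the platelet α subunit that pairs with β3, was at 5.09 FPKM in the JAK2 V617F library and 5.30 FPKM in the control library (log2 ratio -0.05). Itgb2l, a β2-like gene of neutrophils, was at 1.32 FPKM in the JAK2 V617F library and 1.57 FPKM in the control library (-0.15).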
